A study of Mus musculus with 9 samples.

Results

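A set of 10 genes of the BCL2 family was followed in a mouse model of acute promyelocytic leukemia (APL) treated in vivo with all-trans retinoic acid (ATRA) or arsenic trioxide (ATO). The 10 genes were picked by name from the family: 5 that keep cells alive (Bcl2, Bcl2l1, Mcl1, Bcl2a1b and Bcl2a1d), 4 BH3-only genes that start cell death (Bcl2l11, Bmf, Bid and Bad) and the effector Bak1. All 10 were among the 24364 genes of the tables and among the 12101 genes expressed strongly enough to be tested.

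BCL2 family proteins decide whether a cell keeps its mitochondrial outer membrane intact. The pro-survival members hold a short helix, the BH3 domain, of their relatives in a groove on their surface. BH3-only proteins, released or newly made under stress, fill that groove or engage the effectors BAX and BAK directly, and the effectors then form pores that let cytochrome c out and switch on caspases. In myeloid cells MCL1 and the A1 proteins are known for carrying short-lived neutrophils and their precursors, whereas BCL2 is known for its high level in many lymphoid cells and its decline as myeloid cells mature.

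The leukemia arose in hMRP8-PML/RARα transgenic mice of the FVB/NJ strain, in which a promoter active in myeloid cells drives the human fusion gene. Bone marrow cells of that leukemia were labelled with green fluorescent protein (GFP) by the retroviral vector MigR1 and transplanted into syngeneic recipients, so the controls carried the transgene, the label and the transplant too. Mice received ATRA at 10 mg/kg or ATO at 4 mg/kg by daily injection for 6 days, or no drug, and GFP-positive marrow cells were then sorted for RNA sequencing. Each group had 3 libraries. The labels do not tie each library to its own animal or state what the controls were injected with, so p-values measure the spread between these libraries, and drug and injection cannot be told apart.

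Libraries held 12192491 (ATO 3) to 25511738 (ATO 2) reads on genes. Values are given as scaled reads, which are reads divided by 1 factor per library so that the typical gene has the same level in all 9 libraries. A gene was called higher or lower in limma at a Benjamini-Hochberg adjusted p under 0.05 over all 12101 genes together with a fold change over 1.5, and log2 fold changes are on the scale of log2(scaled reads + 0.5), which understates changes of weakly expressed genes. Granulocyte and promyelocyte markers (9 of the 10 listed were in the tables) summed to between 249055 and 657451 scaled reads in every library, so defining markers of the labelled cell type were present throughout. Libraries differed in how long and short genes were represented. Per doubling of transcript length, level changed by 0.25 on the log2 scale in control 2 and by -0.35 in ATO 3, against values between -0.15 and 0.13 in the other 7.

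The part of the family that is read most directly by its partners is the BH3 helix, and its coding sequence is shown here because it is what members of opposite function have in common. Each line gives 42 coding bases of the reference mouse genome mm9 (GENCODE vM1 transcripts), with the 18-base core in capitals: a codon for leucine, then 3 codons of any kind, a codon for glycine, alanine or serine, and a codon for aspartate.
Bcl2: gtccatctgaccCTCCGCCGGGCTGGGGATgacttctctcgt
Bcl2l1: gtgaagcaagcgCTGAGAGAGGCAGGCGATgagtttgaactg
Mcl1: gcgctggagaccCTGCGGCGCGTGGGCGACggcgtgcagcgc
Bcl2l11: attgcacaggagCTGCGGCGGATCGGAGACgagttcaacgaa
Bmf: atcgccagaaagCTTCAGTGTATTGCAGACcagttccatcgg
Bid: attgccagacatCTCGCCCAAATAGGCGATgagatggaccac
Bad: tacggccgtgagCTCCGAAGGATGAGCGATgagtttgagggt
Bak1: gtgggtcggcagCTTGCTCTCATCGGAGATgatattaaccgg
The codon before the closing aspartate codon read alanine in Bmf, serine in Bad and glycine in the other members shown. These windows lie within 1 exon each, at chr1:108609149-108609190 (minus strand) for Bcl2, chr2:152655430-152655471 (minus) for Bcl2l1, chr3:95463347-95463388 (plus) for Mcl1, chr2:127972874-127972915 (plus) for Bcl2l11, chr2:118370833-118370874 (minus) for Bmf, chr6:120847304-120847345 (minus) for Bid, chr19:7025270-7025311 (plus) for Bad and chr17:27159473-27159514 (minus) for Bak1. The pattern was found in 8 of the 10 members and in neither Bcl2a1b nor Bcl2a1d.

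The A1 genes Bcl2a1b and Bcl2a1d are near-identical copies on chromosome 9, together with Bcl2a1a, which was not chosen as a member. Their coding sequences are 519 bases long, and Bcl2a1b and Bcl2a1d differ at 6 of them (98.84% identity). The first 60 coding bases hold 6 of the 12 positions at which any of the 3 copies differ, and they are shown with those positions in capitals because only reads over such differences can be assigned to a copy. The other coding differences lie outside this window, and bases outside the coding sequence were not compared.
Bcl2a1b: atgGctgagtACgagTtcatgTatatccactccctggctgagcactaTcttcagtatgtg
Bcl2a1d: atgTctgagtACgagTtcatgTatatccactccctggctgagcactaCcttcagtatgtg
Bcl2a1a: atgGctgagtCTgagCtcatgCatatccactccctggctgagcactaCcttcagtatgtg
In mm9 these stretches are at chr9:89094198-89094257 (plus strand), chr9:88626498-88626557 (minus) and chr9:88851889-88851948 (plus). Bcl2a1b and Bcl2a1d share an identical run of 217 coding bases, and the cells were of another strain than the reference, so the split of reads between the copies is uncertain.

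Across the family, Bmf and Bcl2 were lower and Bak1 was higher in the ATO libraries than in the controls, and Bmf was lower in the ATRA libraries. With ATRA 1 of the 10 genes was called lower and none higher, where 5.6% of all tested genes were called (162 or 1.34% higher and 516 or 4.26% lower). With ATO 2 were called lower and 1 higher, where 14.7% of all tested genes were called (742 or 6.13% higher and 1035 or 8.55% lower). The median log2 fold change of the 10 genes was -0.22 with ATRA and -0.08 with ATO, beside -0.01 for all tested genes with either drug. Scaling to total reads instead moved the median of all tested genes to -0.21 with ATO (295 called higher and 1363 lower) and to -0.07 with ATRA, so differences of that size depend on the scaling. Both comparisons use the same 3 control libraries and are therefore not independent.

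**Figure D1:**
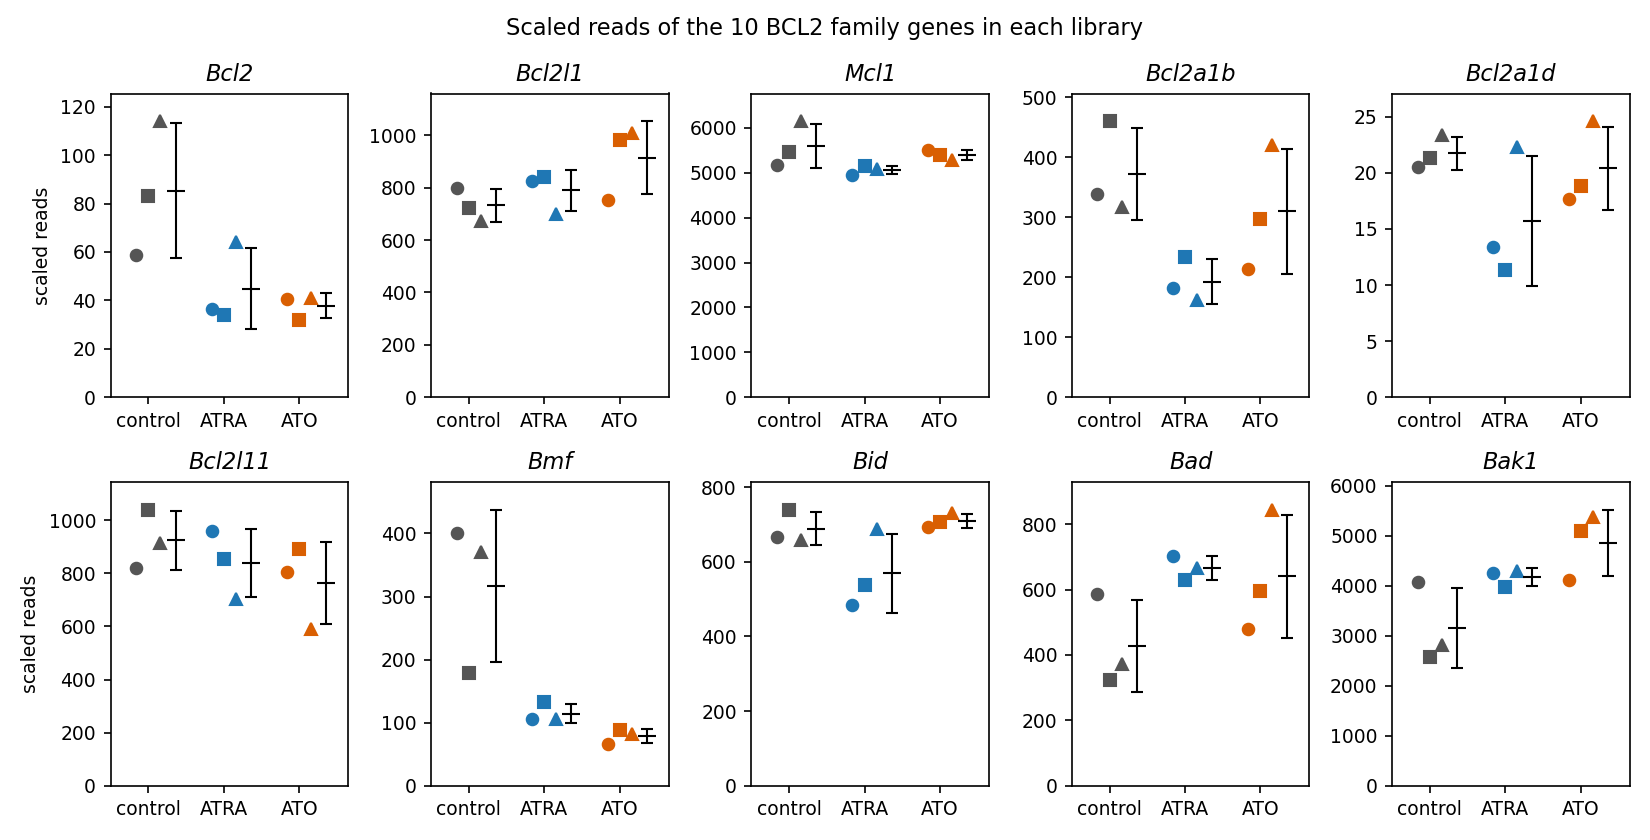
Scaled reads (vertical axes, each starting at 0) of the 10 genes in each library, with circles for library 1, squares for library 2 and triangles for library 3 of each group, and the group mean with its SD (n = 3) to the right. Bmf was lower in all 3 ATO libraries than in any ATRA library, and lower in those than in any control.

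Groups did not overlap for 4 of the 10 genes between ATRA and control, where 24.1% of all tested genes did not overlap, and for 3 of the 10 between ATO and control, where 32.2% did not. With 3 libraries a group, an exact permutation test of a single gene cannot give a two-sided p below 0.1, so the tests below rest on the fit across all genes.

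Levels per kilobase of the longest annotated transcript give the order of the members within a group. In the controls Mcl1 stood highest, at 1606 ± 144 scaled reads per kilobase (SD, n = 3), followed by Bak1 at 1323 ± 335, and the libraries of these 2 genes overlapped. Bcl2a1b followed at 455 ± 94.3. Bcl2l1, Bad and Bid, at 303, 295 and 285 scaled reads per kilobase, did not differ beyond the spread of their libraries. Bcl2l11 had 184, Bmf 68.3, Bcl2a1d 26.6 and Bcl2 only 11.9 scaled reads per kilobase, each below the one before it in every library.

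By group mean, the top of that order differed between control and treated libraries, but Bak1 stood above Mcl1 in control 1 too. Bak1 stood first in both drug groups, at 1745 ± 73.9 per kilobase with ATRA and 2035 ± 277 with ATO (SD, n = 3), without overlap with Mcl1, which had 1452 and 1550. Bad followed them with either drug, but with ATO its libraries overlapped those of Bcl2a1b, the next in order. Bmf had 24.6 scaled reads per kilobase with ATRA, overlapping Bcl2a1d at 19.2, and 17.0 with ATO, below Bcl2a1d at 25.0 with no overlap. Bcl2 was last in all 3 groups. These ranks are descriptions and depend on the transcript lengths used. The levels of Bcl2a1b and Bcl2a1d leave out reads that match several A1 copies, because the authors retained uniquely mapped reads only. Of the 817 exonic bases of Bcl2a1b, 401 also belong to Mthfs on the same strand. The places of these A1 copies in each group are therefore uncertain.

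Bmf encodes a BH3-only protein that is tethered to the myosin V motor through a dynein light chain, the product of Dynll2, and can be set free to bind pro-survival proteins. The gene lies at chr2:118354493-118375423 on the minus strand (mm9). It had 402, 179 and 371 scaled reads in controls 1 to 3, 105, 132 and 105 in the ATRA libraries, and 66.6, 88.5 and 82.0 in the ATO libraries. Every treated library was below every control, control 2 was the lowest control, and the ATO libraries lay below the ATRA libraries without overlap.

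Bmf fell by 1.39 on the log2 scale with ATRA (SE 0.30, limma adjusted p = 0.0147), or 2.62-fold, and by 1.92 with ATO (SE 0.30, limma adjusted p = 0.00212), or 3.79-fold. The call with ATO held in all 14 other settings and with each library left out, with log2 values between -2.29 and -1.71 when a library was missing. Among the 14, an unadjusted p and a fold over 2 reuse the main fit, so for each gene their outcome followed from its main values. The ATRA call did not pass without control 1 (limma adjusted p = 0.0546), control 3 (0.139) or ATRA 1 (0.0633), and its change without control 2 was -1.75. Directly compared, ATO against ATRA gave a log2 difference of -0.53 (95% interval -1.17 to 0.11, limma adjusted p = 0.790).

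Markers of other cell types moved with the same groups. Although the cells were sorted for GFP, macrophage transcripts were detected. Of the 9 listed macrophage markers 8 were tested, of which 5 fell with ATRA and 6 with ATO, while Adgre1 rose with ATO. Their sum was 8402 to 13544 scaled reads in the control libraries, 3542 to 4478 in the ATRA group and 3640 to 5287 in the ATO group. Control 2 had both the lowest macrophage sum and the lowest Bmf of the controls. That library was also the lowest control for the promyelocyte and granulocyte, T and NK cell and stroma sums, and for Bad and Bak1. Its sums for B-lineage markers and for eosinophils, basophils and mast cells were the highest of the controls. Of the mean ATRA macrophage sum of 4058, Csf1r, Vcam1 and Adgre1, not called with ATRA, averaged 1367, 859 and 786. The 5 called genes fell with ATRA by 6.19-fold (Apoe) to 19.4-fold (Mmp12). Sums for eosinophils, basophils and mast cells fell from between 1534 and 3126 in the controls to between 336 and 449 with ATRA and 454 and 614 with ATO, those for stroma from between 907 and 1120 to between 341 and 453 and 363 and 395, and those for T and NK cells from between 371 and 560 to between 139 and 218 and 156 and 172. In each of these 3 lists 5 genes were called lower with either drug. Most of the treated stroma sum was Pecam1, which averaged 351 scaled reads in controls, 323 with ATRA and 324 with ATO and was not called. Most of the treated T and NK sum was Lck, at 106, 122 and 129, likewise not called. The called genes of both lists fell further than the sums. Sparc averaged 188, 3.13 and 4.20, and Il2rb 255, 15.6 and 7.15. B-lineage markers summed to at most 68.1 scaled reads in any library, with Ms4a1, Pax5 and Ebf1 at 0 in all treated libraries. In bulk libraries, fewer cells of a type and less RNA per cell cannot be told apart. The paper describes a spontaneous monocytic differentiation of APL cells in this model. Whether the macrophage transcripts came from leukemia cells or from other cells was not tested. The part of any of these cell types in the Bmf values was not tested either.

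**Figure D2:**
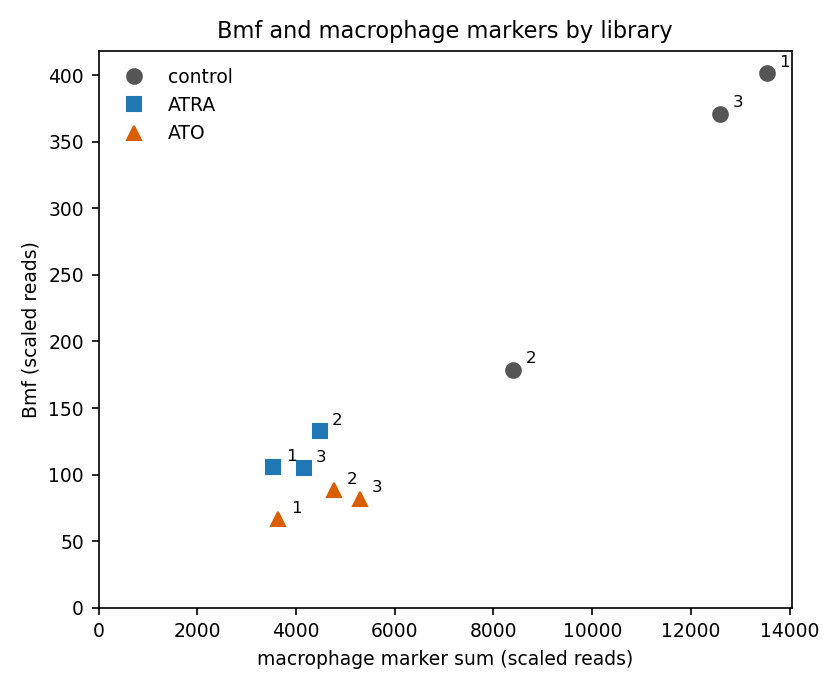
Scaled reads of Bmf (vertical axis) against the summed scaled reads of the 8 macrophage markers (horizontal axis) in the 9 libraries, numbered within each group. The controls lie between 8402 and 13544 on the horizontal axis, with control 2 lowest on both axes, and all treated libraries lie at or below 5287 and 133 scaled reads of Bmf.

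The genes whose pattern was most like that of Bmf, among 9237 genes with a mean of at least 100 scaled reads, were AF251705 (Pearson r = 0.970), Mfge8 (0.965) and Kremen1 (0.965), over 9 libraries that share their groups. Mfge8, which encodes a secreted bridge between dying cells and phagocytes, averaged 1732 ± 893 scaled reads in the controls, 344 ± 116 with ATRA and 279.9 ± 51.7 with ATO (SD, n = 3).

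One promoter of Bmf is shown because ATRA acts through nuclear receptors whose known half-site is AGGTCA, and Bmf was the gene called with ATRA. RefSeq promoter windows (GRCm38.p6) gave 16 stretches of 250 bases before a start for the 10 members. The half-site, searched on both strands, was in 2 of them, 1 for Bmf and 1 for Bcl2l1, beside 14% of 32851 windows of all genes. The other windows of Bmf did not hold it, and Bmf was called lower with ATO too. In the Bmf window, chr2:118549687-118549936 on the minus strand, it stands in capitals.
Bmf promoter: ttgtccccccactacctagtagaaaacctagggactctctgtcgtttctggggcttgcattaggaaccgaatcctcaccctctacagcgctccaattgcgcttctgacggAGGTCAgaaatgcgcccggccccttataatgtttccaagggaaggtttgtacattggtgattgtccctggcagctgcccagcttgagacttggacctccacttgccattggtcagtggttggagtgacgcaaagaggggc
No member window held 2 half-sites in direct repeat with 5 bases between them (0.00913% of windows). The FOXO core GTAAACA was found for Bcl2l11 (3.17% of windows), the C/EBP-ATF site TGATGCAA for Bcl2a1b (0.791%), the PU.1 core AGAGGAAG for Bak1, Bcl2a1b and Bcl2a1d (3.67%) and the AP-1 site TGACTCA for none (4.46%). These are matches of letters only.

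Bcl2, the founding pro-survival gene, had the lowest level per kilobase and fell with ATO. It spans chr1:108434755-108610851 on the minus strand (mm9). Controls 1 to 3 had 58.6, 83.3 and 114.1 scaled reads, the ATRA libraries 36.4, 34.1 and 64.2, and the ATO libraries 40.6, 31.9 and 41.0. All ATO libraries were below all controls, whereas ATRA 3 was above control 1.

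Bcl2 fell by 1.12 on the log2 scale with ATO (SE 0.34, limma adjusted p = 0.0426), or 2.17-fold. With ATRA the difference was -0.93 (SE 0.34, limma adjusted p = 0.151), and the log2 difference of ATO from ATRA was -0.19 (95% interval -0.92 to 0.53). The ATO call rested on 25 to 127 reads per library and was not stable. It did not pass without control 2 (limma adjusted p = 0.0790), control 3 (0.203), ATRA 1 (0.0573), ATRA 2 (0.0597), ATO 1 (0.0601), ATO 2 (0.130) or ATO 3 (0.0944). It passed in 9 of 14 other settings, and did not with no filter (0.0607), a mean of at least 50 (0.0528), only the groups compared (0.0558), the tables as deposited (0.0578) or the length trend removed, where the log2 change was -0.79 (0.142). Without the library of steepest length slope in each group (control 2, ATRA 3 and ATO 3), Bcl2 was called lower with ATRA as well, at -1.20 (0.0318). The most similar patterns were those of Lyrm5 (Pearson r = 0.990), Ccnyl1 (0.988) and Nt5dc1 (0.984).

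Bcl2l1, which encodes BCL-XL, was not called with either drug. It had 800.2, 724 and 674 scaled reads in the control libraries, 826, 842 and 701 in the ATRA group and 754, 982 and 1008 in the ATO group. All 3 groups overlapped. The log2 difference was 0.11 with ATRA (95% interval -0.27 to 0.49) and 0.31 with ATO (95% interval -0.07 to 0.69).

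Mcl1, whose protein turns over fast and protects myeloid precursors, had the smallest SE of the members (0.14 for each comparison). The controls had 5181, 5459 and 6153 scaled reads, the ATRA libraries 4958, 5144 and 5083, and the ATO libraries 5519, 5401 and 5285. The ATRA libraries were all below the controls and below the ATO libraries, by a small margin. The log2 difference was -0.14 with ATRA (95% interval -0.46 to 0.17, limma adjusted p = 0.631) and -0.05 with ATO (95% interval -0.36 to 0.27, limma adjusted p = 0.834), so a change beyond the fold threshold of 1.5 lay outside both intervals. These are transcript levels, and MCL1 protein was not measured in these libraries. Of 4 genes that control MCL1 protein turnover none was called, and the most expressed, the ubiquitin ligase gene Huwe1, had log2 differences of -0.47 with ATRA and -0.72 with ATO, with ATRA 3 (2350) and ATO 3 (1495) below the other 7 libraries (3758 to 5359).

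Bcl2a1b encodes an A1 protein, a pro-survival member found mainly in blood cells. It had 339, 460 and 317 scaled reads in the control libraries, 181, 234 and 162 in the ATRA group, and 213, 297 and 420 in the ATO group. ATRA libraries were all below the controls, and the ATO libraries spread across the range of both other groups.

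With ATRA the log2 difference of Bcl2a1b was -0.95 (SE 0.26, limma adjusted p = 0.0556), just short of a call. It was called lower by edgeR (adjusted p = 0.0437) and DESeq2 (0.0101) on the recovered reads, with scaling to total reads (0.0348), without the ATO libraries in the fit (0.0416), after removal of the length trend (0.0176), and without ATO 1 (0.0388) or ATO 3 (0.0311), among others. It was not called in 6 of the 14 other settings or with any of the remaining 7 libraries left out, where its adjusted p reached 0.178. With ATO the difference was -0.30 (SE 0.26, limma adjusted p = 0.430). ATO minus ATRA was 0.65 (95% interval 0.08 to 1.22), with an unadjusted p of 0.0285 in limma and an adjusted p of 0.706.

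Bcl2a1d, the other A1 copy among the members, was weak, with 20.5, 21.3 and 23.4 scaled reads in the control libraries, 13.4, 11.4 and 22.3 in the ATRA group and 17.7, 18.9 and 24.6 in the ATO group. Its log2 difference was -0.51 with ATRA (95% interval -1.31 to 0.28) and -0.10 with ATO (95% interval -0.90 to 0.70). The groups overlapped in both comparisons.

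Because the split of reads between the copies is uncertain, Bcl2a1a, Bcl2a1b and Bcl2a1d were also summed. The authors retained uniquely mapped reads only, so reads that match several copies equally well are missing from each copy and from the sum. The A1 sum was 446, 599 and 423 scaled reads in the control libraries, 269, 309 and 277 in the ATRA group, and 294, 427 and 584 in the ATO group. ATRA libraries again lay below all controls, and ATO libraries overlapped the controls. Bcl2a1b took 58.4% (ATRA 3) to 76.8% (control 2) of that sum. In GENCODE vM1, 401 of the 817 exonic bases of Bcl2a1b also belong to Mthfs on the same strand, and how reads there were assigned is not given in the sources used here.

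Bcl2l11 encodes BIM, the BH3-only protein that binds all pro-survival members. It had 819, 1040 and 915 scaled reads in the control libraries, 960, 853 and 704 in the ATRA group and 804, 892 and 591 in the ATO group. All groups overlapped, and the lowest value was that of ATO 3. The log2 difference was -0.15 with ATRA (95% interval -0.58 to 0.28) and -0.29 with ATO (95% interval -0.72 to 0.14).

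Bid encodes a BH3-only protein that caspase-8 cuts to link death receptors to mitochondria. It had 666, 739 and 659 scaled reads in the control libraries, 483, 537 and 687 in the ATRA group and 692, 705 and 730.2 in the ATO group. The ATO libraries were all above the ATRA libraries, and both drug groups overlapped the controls. The log2 difference was -0.29 with ATRA (95% interval -0.66 to 0.09), 0.05 with ATO (95% interval -0.33 to 0.42) and 0.33 for ATO against ATRA (95% interval -0.04 to 0.71, limma adjusted p = 0.783), and with scaling to total reads the ATO value was -0.15. Bid shares 628 of its 3550 exonic bases with Bcl2l13 on the opposite strand, and reads there cannot be assigned without strand.

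Bad encodes the BH3-only protein that growth factor signalling holds inactive by phosphorylation. It had 587, 324 and 373 scaled reads in the control libraries, 704, 628 and 667 in the ATRA group and 479, 597 and 845 in the ATO group. All ATRA libraries were above all controls, while ATO 1 was below control 1. The log2 difference was 0.68 with ATRA (SE 0.25, limma adjusted p = 0.154) and 0.59 with ATO (SE 0.25, limma adjusted p = 0.117), and neither was called. Without control 1, the highest control, both were called higher (limma adjusted p = 0.0432 with ATRA and 0.0253 with ATO). The controls then left, 2 and 3, had length slopes of 0.25 and 0.13, against 0.01 in control 1. The longest transcript of Bad has 1451 bases. With the length trend removed, no member was called higher with either drug, Bad included. The same held without the library of steepest length slope in each group. The part of transcript length in the Bad values was not tested further. Bad shares 517 of 2007 exonic bases with Gpr137 on the opposite strand.

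Bak1, the effector that forms pores in the outer membrane, was the member called higher. It lies at chr17:27156755-27165954 on the minus strand (mm9). The controls had 4069, 2581 and 2822 scaled reads, the ATRA libraries 4250, 3963 and 4283, and the ATO libraries 4113, 5087 and 5374. ATO libraries were all above the controls, ATO 1 only just above control 1, and ATRA 2 was below control 1.

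Bak1 rose with ATO by 0.64 on the log2 scale (SE 0.19, limma adjusted p = 0.0415), or 1.56-fold, close to the fold threshold. With ATRA the difference was 0.43 (SE 0.19, limma adjusted p = 0.245), and ATO minus ATRA was 0.21 (95% interval -0.20 to 0.63). The ATO call did not pass at a fold over 2, with edgeR (adjusted p = 0.0507) or with scaling to total reads (log2 0.44, limma adjusted p = 0.0841). Nor did it pass with only the groups compared (0.0829) or with the tables as deposited (0.0807). It was also lost without control 2 (0.116), control 3 (0.181), ATRA 1 (0.0608), ATRA 2 (0.0665), ATO 2 (0.119) or ATO 3 (0.128). After removal of the length trend the log2 change was 0.57 and the fold fell under 1.5, and without control 2, ATRA 3 and ATO 3 it was 0.43 (0.140). The part of transcript length in the Bak1 values was not tested further. The most similar patterns were those of Asna1 (Pearson r = 0.996), Ube2m (0.994) and Rrp7a (0.994).

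**Figure D3:**
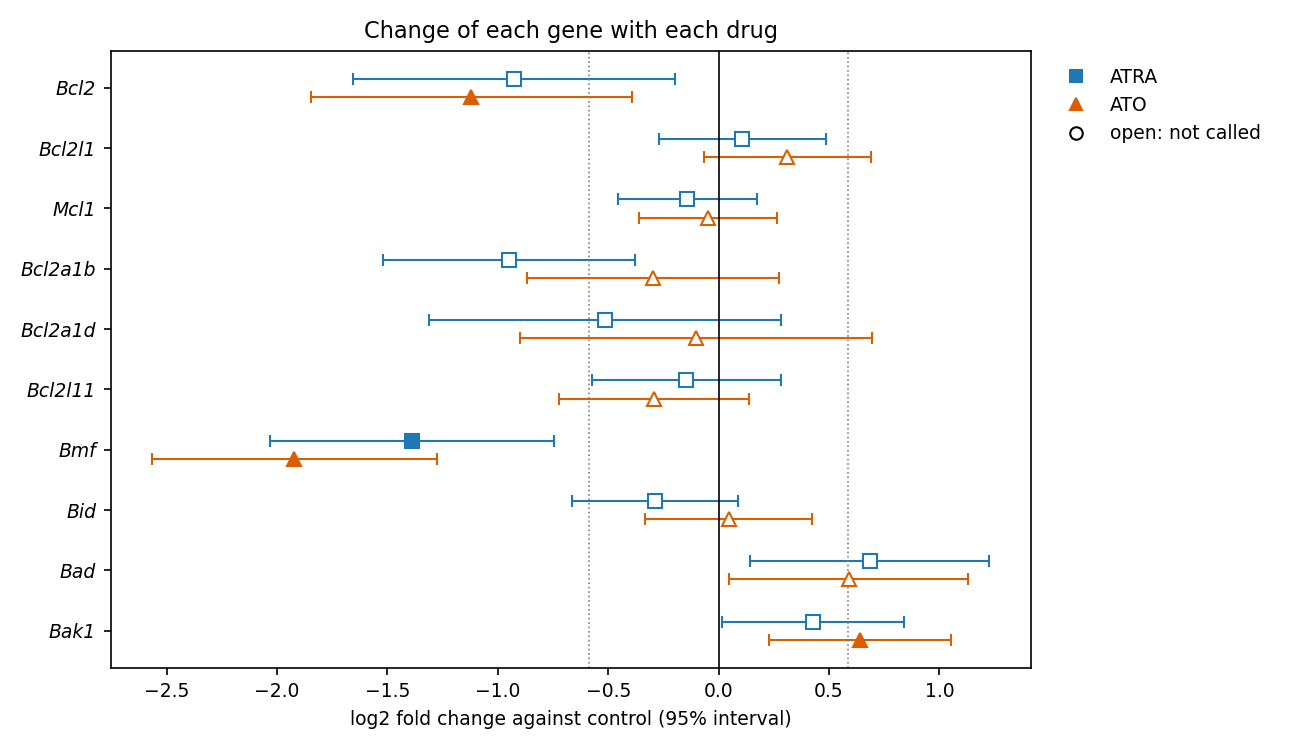
Log2 fold change against control (horizontal axis) with its 95% interval for each of the 10 genes with ATRA (squares) and ATO (triangles); filled symbols were called, and dotted lines mark a fold of 1.5 in either direction. Bmf with both drugs, Bcl2 with ATO and Bak1 with ATO are filled.

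**Figure D4:**
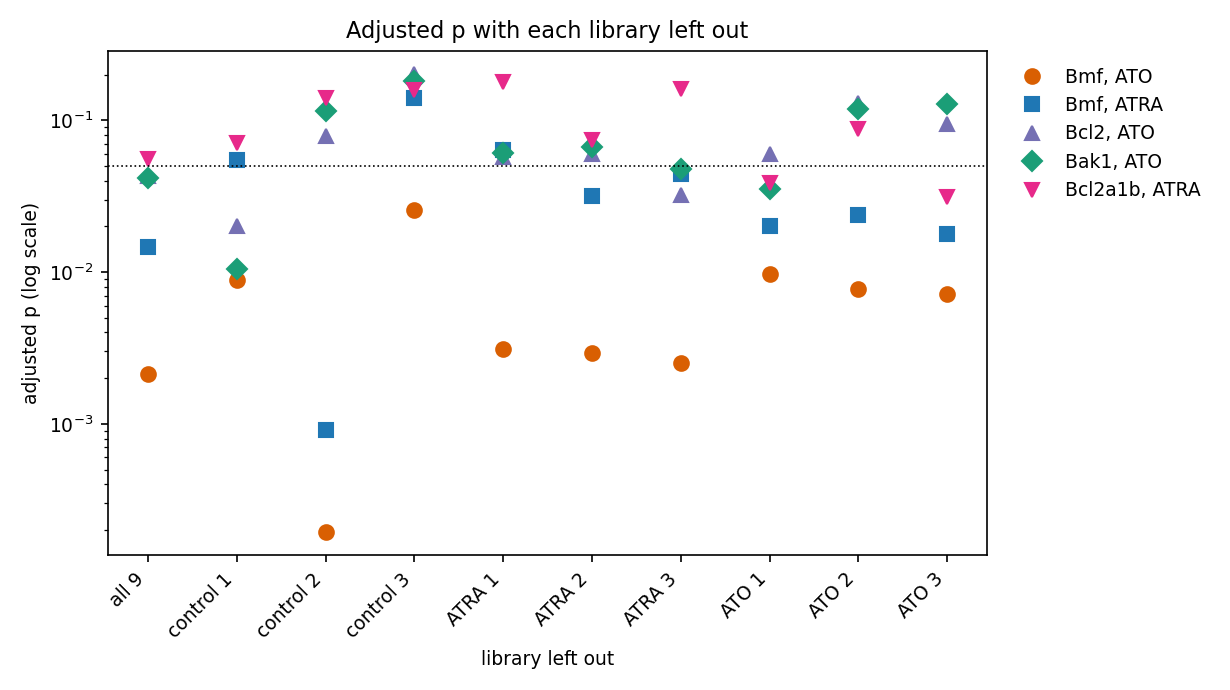
Adjusted p (vertical axis, log scale) of 5 changes with all 9 libraries and with each library left out, with a dotted line at 0.05. Bmf with ATO stays under the line throughout, at most 0.0255, whereas Bcl2 and Bak1 with ATO cross it for 7 and 6 of the 9 libraries.

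Compared directly, no member differed between ATO and ATRA in limma, and neither did any other tested gene (0% called; 551 genes at an unadjusted p under 0.05 with a fold over 1.5, 72 called by DESeq2 and 0 by edgeR). For 3 members the libraries did not overlap between the drugs, where 15.1% of all tested genes did not: Bmf was lower with ATO, and Mcl1 and Bid were higher.

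Around these 10 genes, 56 other genes of the cell death pathway were listed by role, of which 51 were tested. With ATRA 1 of the 51 was called higher and none lower, beside 5.6% called in either direction among all tested genes. With ATO 7 were called higher and 3 lower, beside 14.7% among all tested genes, and the counts by list below are to be read against the same shares. Median log2 fold changes of the 51 genes were 0.09 with ATRA and 0.14 with ATO. The genes below were taken by the rule that up to 4 called genes of each list are named.

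Bax, the partner of BAK in pore formation, had 4816, 3469 and 2987 scaled reads in the control libraries, 6867, 6092 and 6029 in the ATRA group and 5590, 6990 and 8973 in the ATO group. All treated libraries were above all controls. It rose with ATO by 0.94 on the log2 scale (SE 0.21, limma adjusted p = 0.0162) and had a difference of 0.78 with ATRA (limma adjusted p = 0.0526). With the length trend removed the ATO change was 0.57 and no longer called, and the ATO call did not pass without control 3 (0.113), ATO 2 (0.0530) or ATO 3 (0.0599). Bok, the other listed effector, was too weak to test.

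Dynll1, which encodes the dynein light chain known for holding BIM, was the listed gene called with both drugs. It had 1381, 2109 and 853 scaled reads in the control libraries, 2883, 2873 and 3739 in the ATRA group and 2767, 2368 and 4028 in the ATO group. Every treated library was above every control, and control 2 was the highest of the controls and control 3 the lowest. The log2 change was 1.21 with ATRA (SE 0.29, limma adjusted p = 0.0281) and 1.14 with ATO (SE 0.29, limma adjusted p = 0.0255). The ATRA call did not pass without control 1 (0.0618), control 3 (0.181), ATRA 1 (0.0665), ATRA 2 (0.0597) or ATRA 3 (0.0918), nor the ATO call without control 3 (0.143) or ATO 3 (0.0963). Dynll2, named for its tie to BMF after its values were seen and not by the rule, was not called, with log2 differences of 0.38 with ATRA (limma adjusted p = 0.263) and 0.45 with ATO (limma adjusted p = 0.0935).

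Among the other upstream regulators 2 of the remaining 8 rose with ATO. Ddit3, the stress-induced transcription factor CHOP, had 223, 229 and 191 scaled reads in the control libraries, 358, 265 and 447 in the ATRA group and 505, 514 and 715 in the ATO group. The 3 groups stood apart without overlap, ATO above ATRA above control. The ATO change was 1.41 (SE 0.23, limma adjusted p = 0.00254) and was called with each library left out; the ATRA difference was 0.70 (limma adjusted p = 0.102) and ATO minus ATRA was 0.71 (95% interval 0.22 to 1.20, limma adjusted p = 0.528).

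Trp53, the gene of the p53 tumour suppressor, had 2299.9 to 3340 scaled reads in the control libraries, 3418 to 4091 in the ATRA group and 3794 to 4888 in the ATO group. It rose by 0.70 with ATO (limma adjusted p = 0.0260). That call did not pass without control 2 (0.0623), control 3 (0.149), ATO 2 (0.0778) or ATO 3 (0.0871), nor with only the groups compared (0.0547), with the tables as deposited (0.0526) or with scaling to total reads, where the fold was under 1.5.

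Of 8 genes of the apoptosome and of mitochondrial release, 2 rose with ATO. Cycs, the cytochrome c gene, had 1032 to 1201 scaled reads in the control libraries, 1227 to 2142 in the ATRA group and 1842 to 2520 in the ATO group, and rose by 0.92 with ATO (limma adjusted p = 0.0186; 0.106 without control 3 and 0.0675 without ATO 3). Htra2, a protease that blocks inhibitors of apoptosis, had 2019 to 2920 scaled reads in the control libraries, 3351 to 3565 in the ATRA group and 3376 to 4779 in the ATO group, and rose by 0.82 with ATO (limma adjusted p = 0.0160; 0.106 without control 3 and 0.0688 without ATO 2). Neither was called with ATRA.

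Of 5 genes that encode inhibitor of apoptosis proteins, 2 fell with ATO and none was called with ATRA. Xiap, the direct caspase inhibitor, had 368, 892 and 612 scaled reads in the control libraries, 480.3, 402 and 299.6 in the ATRA group and 281, 282 and 172 in the ATO group, and fell by 1.29 with ATO (SE 0.31, limma adjusted p = 0.0208; 0.0539 without control 2, 0.111 without control 3 and 0.0842 without ATO 3). Birc2, a ubiquitin ligase of receptor signalling, had 239 to 365 scaled reads in the controls and 133 to 199.8 with ATO, and fell by 0.85 (limma adjusted p = 0.0277; 0.0505 without control 2, 0.155 without control 3, 0.0763 without ATO 2, 0.104 without ATO 3, 0.0588 with only the groups compared and 0.0607 with the tables as deposited).

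Of 7 death receptor genes, Tnfrsf10b, the mouse receptor for TRAIL, rose with ATO. It had 74.6 to 123.9 scaled reads in the control libraries, 124.0 to 139 in the ATRA group and 162 to 181 in the ATO group, a log2 change of 0.92 with ATO (limma adjusted p = 0.0252; 0.146 without control 3, 0.0826 without ATO 2, 0.0578 without ATO 3, 0.0558 with only the groups compared, 0.0554 with the tables as deposited and 0.0654 with scaling to total reads). Of 7 other BH3-only or BH3-containing genes 5 were tested, and Bnip3l, a mitophagy receptor, fell with ATO by 0.76 (limma adjusted p = 0.0195; 0.125 without control 3 and 0.0832 without ATO 2), from 1633 to 2207 scaled reads in the controls to 953 to 1364.

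The remaining lists held no called gene. The most expressed of each was Bcl2l2, a pro-survival relative, with log2 differences of 0.18 and 0.28 for ATRA and ATO, Bcl2l13 among the BCL2-like proteins with -0.20 and -0.02, and Casp2 among 6 caspase genes with -0.32 and -0.24. Casp2 was below all 3 controls in every treated library, at 1062 to 1285 against 1435 to 1485 scaled reads. Bcl2l10, Bik and Hrk were too weak to test and Bcl2a1c had no read in any library.

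**Figure D5:**
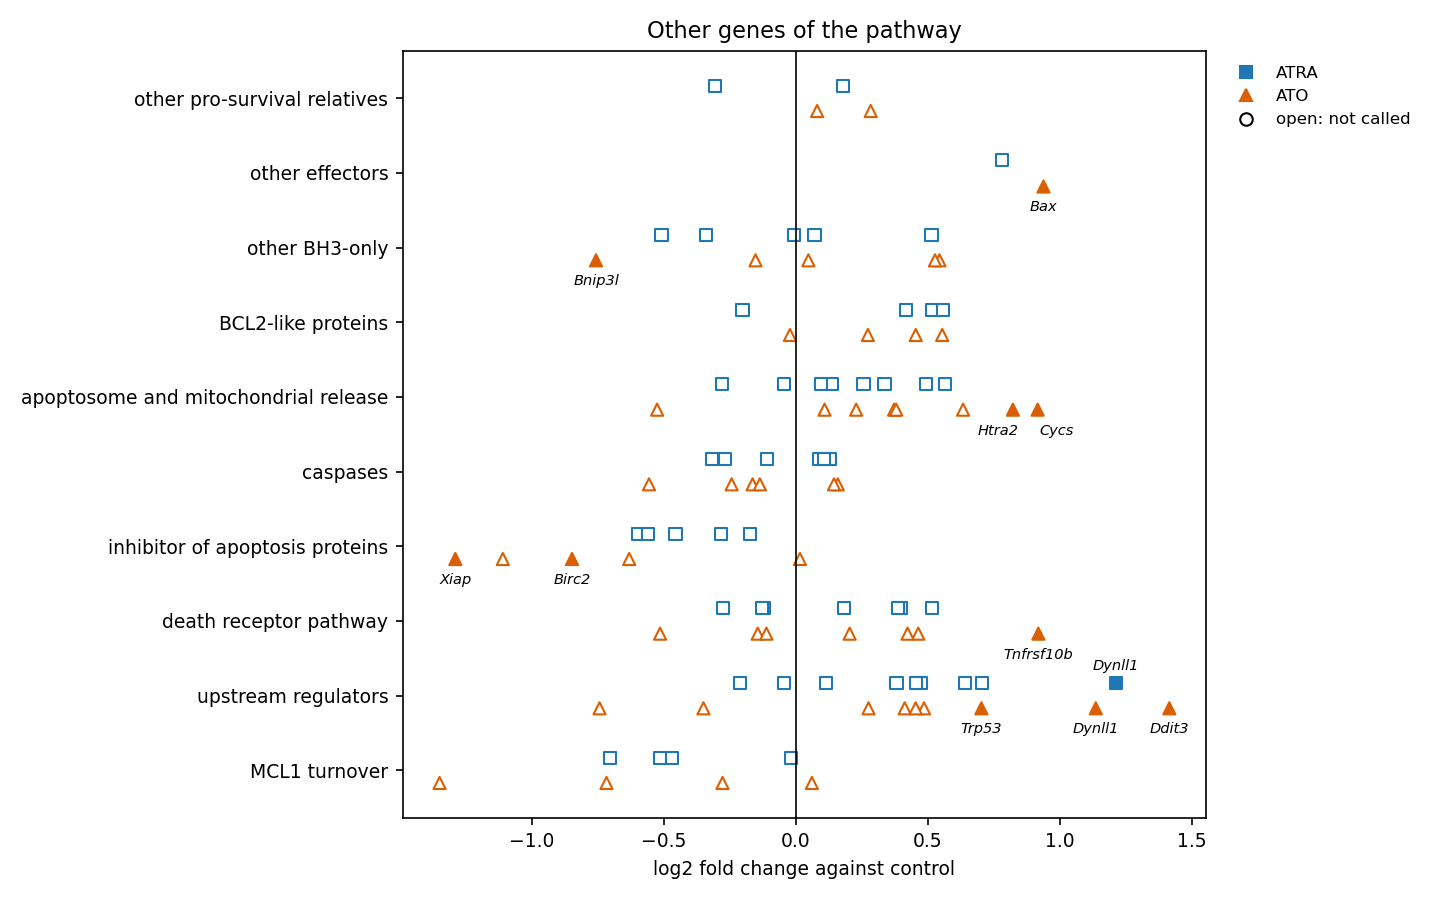
Log2 fold change against control (horizontal axis) of the 51 tested genes of the wider cell death pathway by list, with ATRA as squares and ATO as triangles; filled symbols were called and carry the gene's name. Xiap at -1.29 and Ddit3 at 1.41 with ATO are the lowest and highest of the called genes.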

How the data were processed

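RNA of 9 libraries (3 controls, 3 ATRA, 3 ATO) was sequenced after polyA selection. Per the methods and the submitters' processing notes, the authors used FastQC, cutadapt, STAR on mm9 (hg19 is named too), HTSeq and DESeq2. Tool versions and the annotation: not given in the sources used here. The deposited signal values are the authors' normalized read counts, in 2 tables that share the controls. The authors' log2 fold changes, deposited p-values and adjusted p-values, and score columns were not used or compared.

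Whole reads were recovered (100% of values within 0.001 read) and rescaled together by median-of-ratios factors (0.609 to 1.38). Date-like gene names (27, at most 0.173% of reads) were dropped. Genes with at least 10 scaled reads in at least 3 libraries were fitted on log2(scaled + 0.5) with limma 3.58.1 in R 4.3.3, as 1 model of 3 groups with an intensity trend. The median SE of a log2 fold change was 0.23 and the median 95% half-width 0.50. edgeR 4.0.16 and DESeq2 1.42.0 on recovered reads, other filters, pseudocounts, scalings, a replicate block and left-out libraries were alternatives. Scripts (Python 3.11.15) were tested on simulated data. Members, lists and tests were chosen with earlier results of these data known. All members are named, with up to 4 called genes of each pathway list (or the most expressed) and the 3 genes most alike to each called member. Another set of cell type markers is not reported here. Deviations of same-numbered ATRA and ATO libraries correlated at 0.12, 0.16 and 0.33, and those of differently numbered ones at -0.29 to 0.25. The labels give no pairing, and these values do not establish one.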

Additional observations from a re-analysis of the deposited data

How the results depend on the processing

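With 3 libraries a group, the calls on Bcl2 and Bak1 with ATO and on Bmf with ATRA each depended on single libraries, while the call on Bmf with ATO did not. Main counts were 678 genes (ATRA), 1777 (ATO), 0 (ATO against ATRA) and 4 calls among the members. By an unadjusted p they were 1654, 3109, 551 and 8. ATRA gave 1087 genes with no filter, 264 at a mean of at least 50 and 1570 without the steepest length slope of each group. ATO gave 979 at a fold over 2, 1151 at a mean of at least 50, 1132 with only the groups compared and 1109 with the tables as deposited. ATO against ATRA gave 72 genes with DESeq2, 8 with the length trend removed and 115 without the steepest length slopes. With each library left out, counts ran from 164 to 749 (ATRA), 251 to 3019 (ATO), 0 to 29 (ATO against ATRA) and 1 to 5 calls among the members. With the same genes tested, a choice made after seeing the data as were the steepest-slope fits, they ran from 308 to 857, 376 to 3252, 0 to 29 and 1 to 7. Among them, ATRA gave 389 without ATRA 1 and 404 without ATRA 2, and ATO 1174 without ATRA 2, 618 without ATO 2 and 657 without ATO 3. The lowest ATRA and ATO counts were those without control 3. No change of a member reversed its call. Deviations of same-numbered libraries from their group means correlated at -0.05 to 0.27 between control and ATRA and at -0.38 to 0.08 between control and ATO. Differently numbered libraries reached 0.19 and 0.31, so a pairing of drug with control libraries by number was not established. A replicate block gave 170 higher and 550 lower with ATRA, 742 and 1239 with ATO and 0 between the drugs. It added Bcl2a1b with ATRA (adjusted p = 0.0434) for 5 calls among the members.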
